A study of Drosophila melanogaster with 6 samples.

Results

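The genes ppk23, ppk25 and ppk29 encode pickpocket channels of the DEG/ENaC family, and they are the family members tied to pheromone sensing in the fly. They were found by their symbols among the 17476 genes counted in each library, and 3 of the 30 genes with a pickpocket or ripped pocket symbol were kept. Wings of flies aged 3 days after eclosion had been dissected by hand, and polyadenylated RNA was sequenced from 3 libraries of the control strain, labelled w1118 Canton-S, and 3 libraries of the mutant, labelled Poxn 70. Poxn 70 flies lack the chemosensory sensilla of the wing, and the line had been backcrossed to the control strain, so that the w1118 allele is shared by both groups. Each library is a pool of wings, the labels do not give the sex of the flies, and the labels' 8000 wings from 4000 flies per library do not add up to the total in the study's own text. The comparison asks which transcripts depend on the presence of chemosensory sensilla.

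DEG/ENaC channels are sodium-permeable channels assembled from several subunits, each with a large extracellular domain. On the legs of the fly, ppk23, ppk25 and ppk29 are expressed in gustatory neurons that respond to the long-chain hydrocarbons of the cuticle, the contact pheromones of Drosophila. Loss of any of the 3 genes alters male courtship. Taste neurons sit in chemosensory bristles together with a mechanosensory neuron, and the transcription factor Pox neuro gives such bristles their chemosensory fate.

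Each control-labelled library had 10074860 to 14269486 reads assigned to genes, and each Poxn-labelled library had 14021115 to 16182811. Values are listed in the order of replicates 1, 2 and 3. Counts were scaled by TMM factors, which correct for the share of reads taken by the most abundant genes and which ran from 0.246 in control replicate 1 to 1.86 in Poxn replicate 3. Scaling by total counts instead shifted all genes, with a median log2 fold change that went from −0.0072 to −1.39, so total-count values are given for the channel genes and for the named genes of the lists. Positive log2 fold changes mean a higher level under the control label, and their errors are standard errors (SE). The transcript of the mutated gene, Poxn itself, had 0, 6 and 3 reads under the control label and 92, 86 and 85 under the Poxn label, so it was higher in the libraries of its own mutant. All directions follow the labels. A gene was called when the difference was more than 4-fold and edgeR's adjusted p was under 0.01. These are the study's thresholds, which the study applied to DESeq2's test. Of the 8973 genes tested, 0.602% were called with a higher control level and 0.0557% with a higher Poxn level. With an adjusted p under 0.05 these shares were 3.87% and 0.903%, and with the 4-fold limit alone they were 8.63% and 1.84%. All 3 channel genes passed the filter on low counts and all 3 were called with a higher control level. Their counts in the Poxn-labelled libraries were low, so they passed the filter through the control-labelled libraries alone. The 3 genes were also chosen with earlier results of these data known, so their calls are no independent test.

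ppk23 (FBgn0030844) encodes a channel subunit widely used to mark pheromone-sensing taste neurons. It lies on chromosome X, 17566552 to 17569228 of the release 6 assembly, on the reverse strand, and its exons cover 2209 bases. The control-labelled libraries held 272, 195 and 890 reads of ppk23, and the Poxn-labelled libraries held 1, 0 and 0. A single read was thus left in 3 libraries that each had a larger effective size (gene counts times TMM factor, at least 26119157) than any control-labelled library (at most 18250160). By gene counts alone, Poxn replicate 3 (14021115) lay below control replicate 3 (14269486). Control-labelled libraries averaged 57.1 ± 25.2 CPM (the TMM-scaled count relative to effective library size), and Poxn-labelled libraries 0.0120 ± 0.0208 CPM (mean ± SD, n = 3 each). Absence of reads is compatible with up to 3 counts, or 0.0997 CPM in Poxn replicate 2 and 0.115 CPM in Poxn replicate 3. Summed over libraries, 1357 counts stood against 1, a ratio of 4270 per unit of effective library size with a 95% counting interval from 765 to 168783. With total counts the ratio was 1675, from 300.1 to 66198. These intervals cover counting error only.

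The log2 fold change of ppk23 was 11.57 ± 0.80 (SE; edgeR's quasi-likelihood test, Benjamini-Hochberg adjusted p = 0.000373). It placed ppk23 as rank 6 of 8973 tested genes by p and as rank 19 by fold change. With so few reads in the Poxn-labelled libraries the fitted value depends on the prior count, and it was 8.89 with a prior count of 2 and 10.13 with total counts. Leaving out Poxn replicate 1, which held the only read, raised the adjusted p to 0.0107, just past the threshold, in a range from 8.77e-36 to 0.0107 over the alternatives (edgeR, limma and DESeq2). Without that library the log2 fold change of ppk23 was 12.88. Of all tested genes 3 were then called with a higher control level, beside 54 with all libraries. The exact permutation test of 3 libraries against 3 gave p = 0.1, the smallest it can give, for each of the 3 channel genes.

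**Figure D1:**
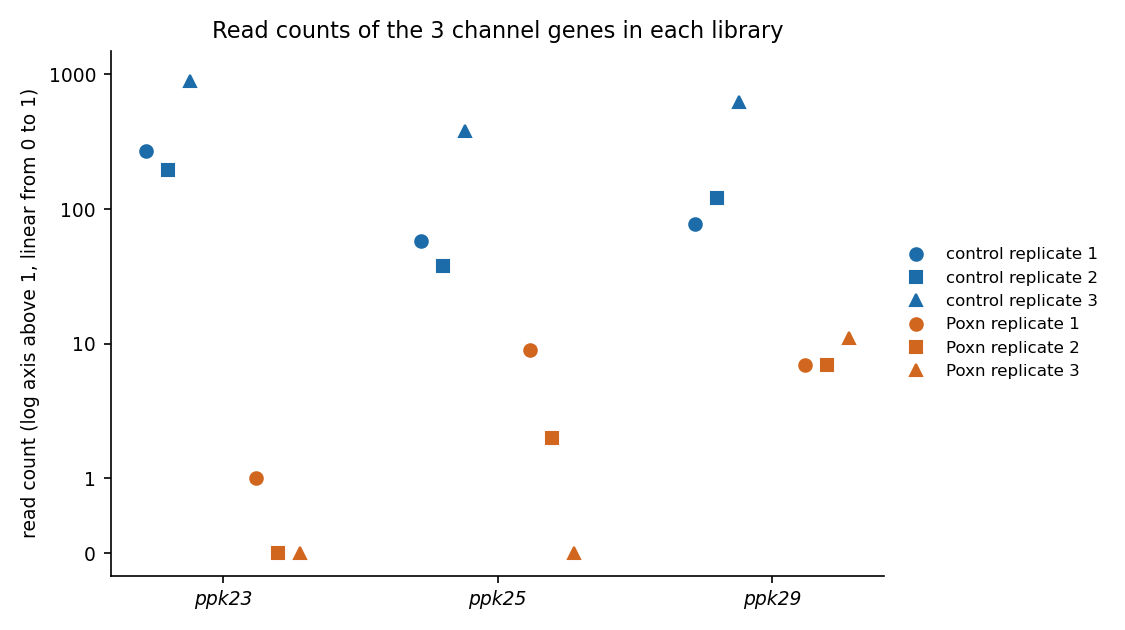
Read counts of ppk23, ppk25 and ppk29 in each of the 6 libraries, on an axis that is logarithmic above 1 and linear from 0 to 1; colours mark the labelled genotype and symbols the replicate. The lowest library labelled control held 38 counts (ppk25 in control replicate 2) and the highest labelled Poxn held 11 (ppk29 in Poxn replicate 3), so the genotypes do not overlap for any of the 3 genes.

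ppk29 (FBgn0034965) encodes a subunit required with ppk23 for responses to pheromones in leg taste neurons. It lies on chromosome 2R, 24052917 to 24057137, on the reverse strand, with 1770 exonic bases. Its reads numbered 78, 120 and 620 in the control-labelled libraries and 7, 7 and 11 in the Poxn-labelled libraries. Unlike ppk23, ppk29 left reads in every Poxn-labelled library. Its level was 27.1 ± 6.01 CPM against 0.302 ± 0.104 CPM (SD, n = 3 each), and with total counts the control level was 20.5 ± 20.1 CPM, so its spread among the control-labelled libraries depended on the scaling. Its log2 fold change of 6.47 ± 0.44 (SE; edgeR adjusted p = 0.000373) fell to 5.19 under total-count scaling (edgeR adjusted p = 0.000854). The ratio of summed counts, 818 against 25, was 103 with a counting interval from 69.2 to 160.1 (40.4, from 27.2 to 62.8, with total counts). Without Poxn replicate 1 the adjusted p rose to 0.0111, the highest of a range that began at 3.68e-40 (edgeR, limma and DESeq2). Of all tested genes 3 were called with a higher control level in that fit, beside 54 with all libraries.

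ppk25 (FBgn0053349) encodes a subunit that male flies need for normal courtship of females. It lies on chromosome 2R, 6950385 to 6952158, on the forward strand, with 1362 exonic bases and a single annotated transcript. Its reads numbered 58, 38 and 382 in the control-labelled libraries and 9, 2 and 0 in the Poxn-labelled libraries. Poxn replicate 1 alone held 9 of the 11 reads left under that label. The level was 15.5 ± 7.26 CPM against 0.130 ± 0.171 CPM (SD, n = 3 each), so the SD was about as large as the mean in the Poxn-labelled libraries. The log2 fold change was 6.82 ± 0.94 (SE), or 5.59 under total-count scaling. Its adjusted p of 0.00983 (edgeR) stood just inside the threshold. The call was lost without control replicate 1 (adjusted p = 0.0387), control replicate 3 (0.0126), Poxn replicate 1 (0.0215), Poxn replicate 2 (0.0844) and Poxn replicate 3 (0.0276) in edgeR, in a range from 3.50e-13 to 0.0844 over all alternatives. In the same order of fits, 42, 222, 3, 7 and 7 of all tested genes were called with a higher control level, beside 54 with all libraries. Without Poxn replicate 1 the log2 fold change was 8.50. The ratio of summed counts, 478 against 11, was 137 with a counting interval from 75.7 to 275.8 (53.6, from 29.7 to 108, with total counts).

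The control-labelled libraries all lay above the Poxn-labelled libraries for each of the 3 channel genes under both scalings. Such a separation was found in 17.9% of all tested genes with TMM factors and in 2.72% with total counts. DESeq2, which at the same criterion called 6.83% of its tested genes as higher under the control label, called all 3 as well, with log2 fold changes of 12.21 for ppk23, 6.98 for ppk25 and 6.58 for ppk29. In whole wings, fewer neurons of a type and less RNA per neuron cannot be told apart.

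**Figure D2:**
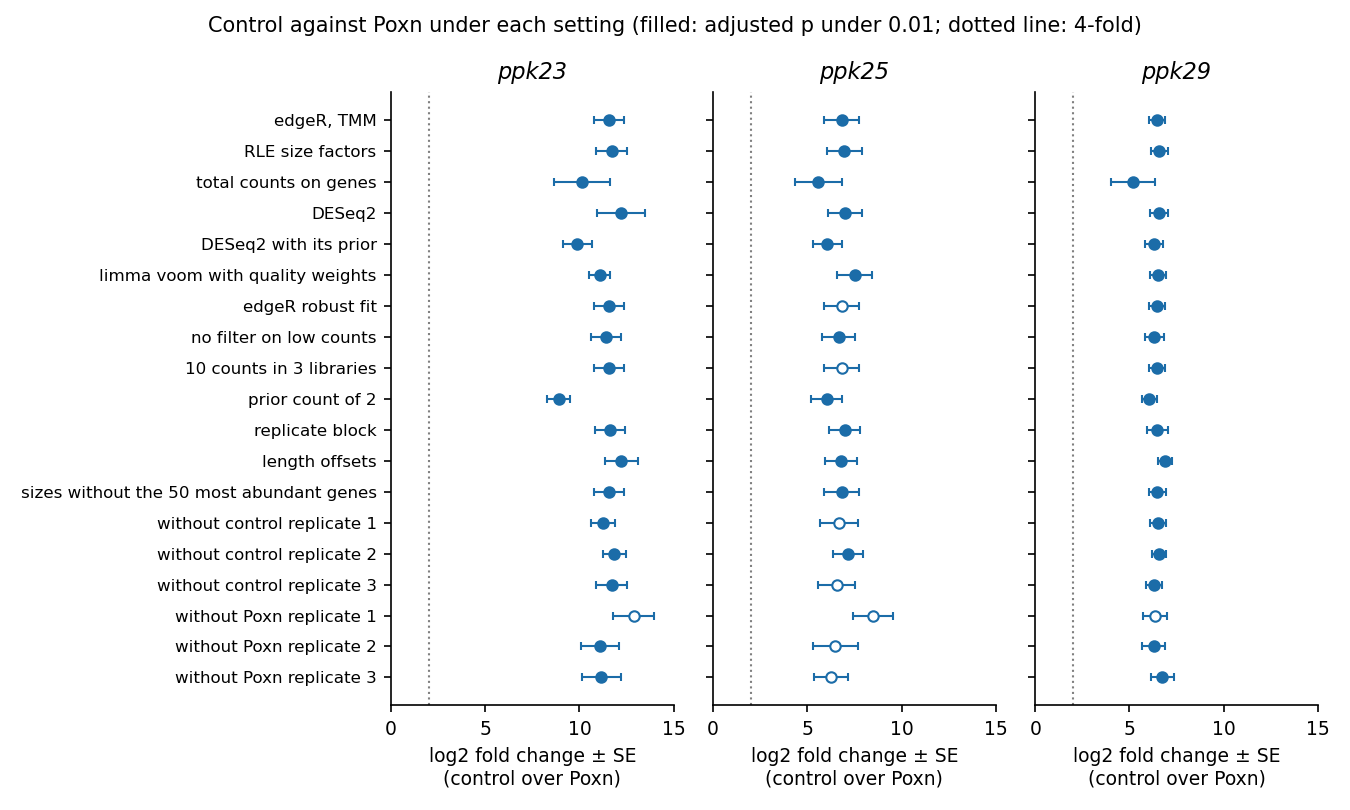
Log2 fold change of each channel gene with its standard error (horizontal axis, positive where the control-labelled libraries were higher) under TMM scaling with edgeR and under the other settings, 1 per line. Filled points had an adjusted p under 0.01; each point lies right of the dotted 4-fold line, and ppk25 has 7 open points against 1 each for ppk23 and ppk29.

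To compare levels between the genes, counts were divided by the exonic bases of each gene. In RPKM, the CPM of a gene per kilobase of its exons, the control-labelled libraries had 25.8 ± 11.4 for ppk23, 15.3 ± 3.40 for ppk29 and 11.4 ± 5.33 for ppk25 (SD, n = 3). This order held within each of the 3 libraries. The spreads of neighbouring genes overlapped, so the ratio within a library, which does not depend on scaling, is the sharper measure. Which library was highest depended on the scaling. With TMM factors ppk23 was highest in control replicate 1, at 38.7 RPKM against 16.8 and 22.1 in replicates 2 and 3, and with total counts it was highest in control replicate 3, at 28.2 RPKM against 9.52 and 8.76 in replicates 1 and 2.

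Per exonic base, ppk23 exceeded ppk29 by 2.79 times in control replicate 1 (95% counting interval 2.16 to 3.64), 1.30 times in replicate 2 (1.03 to 1.65) and 1.15 times in replicate 3 (1.04 to 1.28). Replicate 1 thus stood apart from the other two by more than counting error. ppk23 exceeded ppk25 by 2.89 times (2.17 to 3.91), 3.16 times (2.23 to 4.61) and 1.44 times (1.27 to 1.62), and here replicate 3 stood apart. The ratio of ppk25 to ppk29 was 0.966 in control replicate 1 (0.676 to 1.37), where the genes did not differ beyond counting error, 0.412 in replicate 2 (0.278 to 0.597) and 0.801 in replicate 3 (0.703 to 0.911). ppk23 took 66.7% of the reads on the 3 genes in control replicate 1, 55.2% in replicate 2 and 47.0% in replicate 3, with exact Clopper-Pearson intervals of 61.9% to 71.2%, 49.9% to 60.5% and 44.8% to 49.3%. The share of all counts on transcripts under 600 nt also differed between these libraries, at 30.6%, 20.6% and 16.6%, and its part in the ratios was not tested.

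In the Poxn-labelled libraries ppk23 had the fewest summed reads of the 3. ppk25 stood above ppk29 in replicate 1, at 9 reads against 7. It stood below ppk29 in replicates 2 and 3, at 2 against 7 and 0 against 11. Summed over libraries and per kilobase of exon, ppk29 kept 14.1 counts (95% Poisson interval 9.14 to 20.9), ppk25 kept 8.08 (4.03 to 14.5) and ppk23 kept 0.453 (0.0115 to 2.52). The interval of ppk23 does not meet those of the other genes, and those of ppk25 and ppk29 overlap. The gap between ppk23 and ppk25 rests on Poxn replicate 1, without which ppk25 had 2 and 0 reads and ppk23 had 0 and 0. The log2 ratio of ppk23 to ppk29, with 0.5 count added to each gene, was 0.69 ± 0.69 with the control label and −3.90 ± 1.14 with the Poxn label, a difference of 4.59 with no overlap (exact permutation test, two-sided, p = 0.1, n = 3 each). Without the added count, the counting interval of this ratio reached 0.891, 0.556 and 0.319 at most in the Poxn-labelled libraries and began at 1.03 in control replicate 2. The log2 ratio of ppk23 to ppk25 was 1.23 ± 0.62 with the control label. With the Poxn label it could be read in replicate 1 alone, where 1 read stood against 9 (0.0685 per exonic base, from 0.00156 to 0.494). In replicate 2, with 0 reads against 2, the interval reached 3.28 and covered the control ratios, and in replicate 3 both genes had 0 reads. The log2 ratio of ppk25 to ppk29 was −0.54 ± 0.64 against −1.54 ± 2.45, and the genotypes overlapped (exact permutation test, two-sided, p = 0.7, n = 3 each). Adjusted over the 6 ratio and marker comparisons made here by the Benjamini-Hochberg method, the values for ppk23 to ppk29 and ppk25 to ppk29 are 0.12 and 0.7. The smallest p this design allows is 0.1. The level of ppk23 relative to ppk29 thus differed between the labels without overlap, while a difference in the ratio of ppk25 to ppk29 was not detectable at this depth. ppk29 shares exonic bases with neighbouring genes, as given below, and their part in these ratios was not tested.

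**Figure D3:**
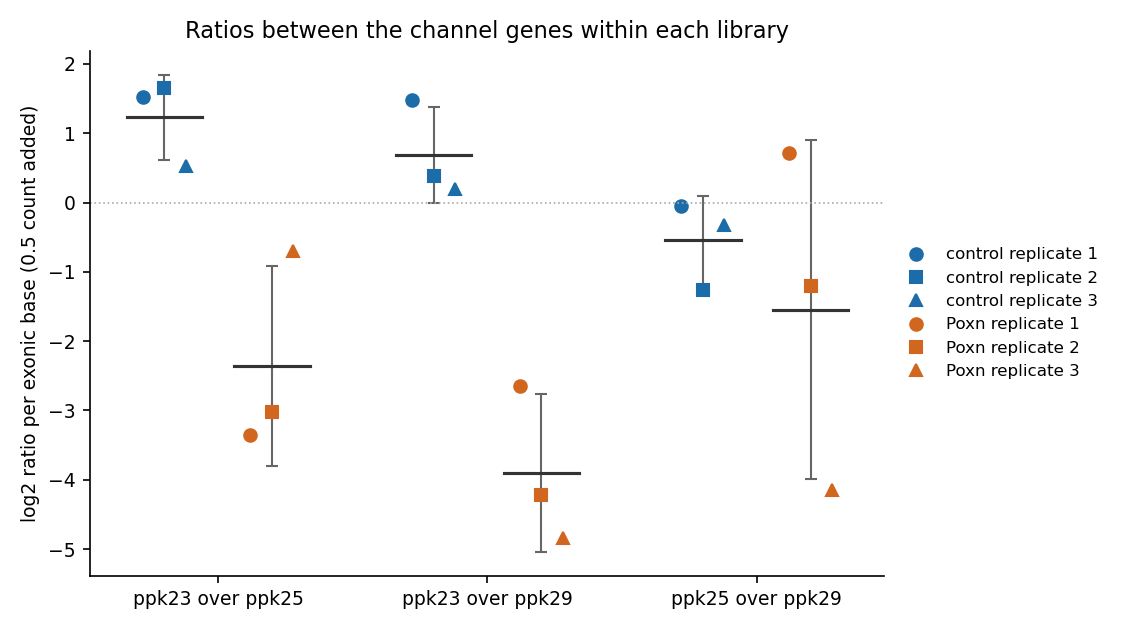
Log2 ratio per exonic base between each pair of channel genes in each library, with 0.5 count added; horizontal lines are group means and bars are 1 SD (n = 3). The ratio of ppk23 to ppk29 fell in separate ranges for the labelled genotypes, with means of 0.69 and −3.90, and the ratio of ppk25 to ppk29 overlapped, while for ppk23 to ppk25 the point of Poxn replicate 3 (0 reads of both genes, at −0.70) is set by the added count and the gene lengths alone.

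Wing neurons other than taste neurons remain in Poxn flies, so the channel genes were also set against 11 neuronal markers, among them elav, an RNA-binding protein of neurons, and nSyb, Syt1 and brp, which serve synaptic release. Of these 11 markers 0 were called in either direction by edgeR or by DESeq2. Beside shares over all genes of 0.602% and 0.0557% in edgeR and 6.83% and 0.692% in DESeq2, this says little. Single markers ran from −1.38 (nSyb) to 1.86 (futsch) in edgeR. In DESeq2 both had an adjusted p under 0.01 (0.00567 and 0.00979) and missed the 4-fold limit alone. At an unadjusted p under 0.05 (edgeR; background 17.8% and 14.1% of all genes), 2 were higher with the control label and 1 with the Poxn label. The median log2 fold change of the 11 markers was 0.05, beside −0.0072 for all tested genes, and −1.59 beside −1.39 with total counts. The geometric mean of the marker counts was 130, 142 and 469 in the control-labelled libraries and 915, 946 and 810 in the Poxn-labelled libraries. Relative to this mean, ppk23 had 2.09, 1.37 and 1.90 reads per marker read with the control label and 0.00109, 0 and 0 with the Poxn label. For ppk29 the values were 0.600, 0.846 and 1.32 against 0.00765, 0.00740 and 0.0136. For ppk25 they were 0.446, 0.268 and 0.814 against 0.00984, 0.00211 and 0. Each channel gene was thus scarce beside the neuronal markers of the same Poxn-labelled library, with no overlap between the labels. On the log2 scale with 0.5 count added, the difference between genotypes was 11.08 for ppk23, 7.49 for ppk25 and 6.50 for ppk29 (exact permutation test, two-sided, p = 0.1 and 0.12 after the adjustment over 6, n = 3 each).

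**Figure D4:**
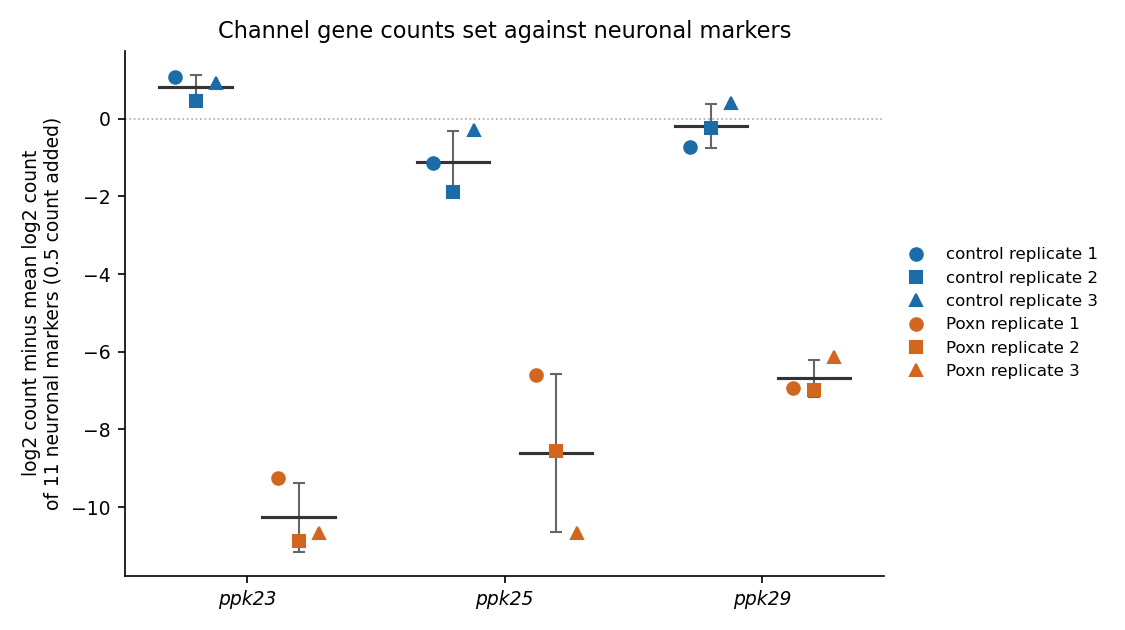
Log2 count of each channel gene minus the mean log2 count of 11 neuronal markers in the same library, with 0.5 count added; lines are group means and bars 1 SD (n = 3). The control-labelled libraries lay between −1.88 and 1.07 and the Poxn-labelled libraries between −10.89 and −6.14, with no overlap for any of the 3 genes.

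Each gene was then checked for neighbours that could share its reads, since the strand setting of the counting is not given in the sources used here. ppk23 overlaps no other gene. The nearest protein-coding genes are CG43658, at a gap of 5371 bases, and Ankle2, at a gap of 2625 bases. ppk25 lies inside an intron of CheB42c and of mim on the opposite strand, with 0 exonic bases in common, and without strand, unspliced reads of either gene and reads of ppk25 cannot be told apart. The last exon of ppk29 overlaps that of sei, which encodes a voltage-gated potassium channel and runs on the opposite strand, by 119 bases, or 6.72% of the exonic bases of ppk29. sei had 77, 191 and 760 reads against 966, 1129 and 879 in the Poxn-labelled libraries, and its log2 fold change of −0.05 ± 0.32 (SE; edgeR adjusted p = 0.934) was −1.31 under total-count scaling. For each ppk29 read there were thus 138, 161 and 79.9 reads of sei in the Poxn-labelled libraries and 0.987, 1.59 and 1.23 in the control-labelled libraries, and without strand the reads of the shared stretch cannot be told apart. The ratio of ppk23 to ppk29 in the Poxn-labelled libraries carries this limit. CG13563, also on the opposite strand, covers 70 exonic bases of ppk29 and had 1768, 75 and 1494 reads against 130, 209 and 215 (log2 fold change 5.03 ± 1.20, edgeR adjusted p = 0.0424; 2.77 under total-count scaling).

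Of the other 27 DEG/ENaC genes, 24 had a read in at least 1 library and 10 could be tested, and 1 gene was called in each direction. ppk10 was the one with the higher control level. It had 43, 86 and 326 control reads and 6, 6 and 5 Poxn reads, and a log2 fold change of 6.26 ± 0.41 (SE; edgeR adjusted p = 0.000373), or 4.94 under total-count scaling. Without Poxn replicate 1 its edgeR adjusted p was 0.0107. Its fold change lay within 1 standard error of that of ppk29. Per exonic base, ppk29 exceeded ppk10 by 1.69, 1.30 and 1.78 times in the control-labelled libraries, with counting intervals that overlapped, and by 1.09, 1.09 and 2.05 times in the Poxn-labelled libraries, where the intervals reached from 0.314 to 7.54. ppk3 passed the looser threshold of 0.05 in edgeR, with a log2 fold change of 2.38 ± 0.55 (SE; adjusted p = 0.0395) that was 0.66 under total-count scaling (edgeR adjusted p = 0.545). In DESeq2 its adjusted p was 0.000453.

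In the opposite direction, ppk26, a subunit used in mechanical nociception by larval sensory neurons, had 19, 18 and 168 control reads and 1328, 2372 and 1849 Poxn reads (log2 fold change −3.38 ± 0.46, edgeR adjusted p = 0.00954; −4.58 under total-count scaling). Its call was lost with RLE factors (edgeR adjusted p = 0.0105), with length offsets (0.0158), and without control replicate 1 (0.0440), Poxn replicate 1 (0.0382), Poxn replicate 2 (0.0549) or Poxn replicate 3 (0.0478). In these 4 fits with a library left out, 2, 0, 1 and 1 of all tested genes were called with a higher Poxn level, beside 5 with all libraries. The partner of ppk26, ppk, had 4, 24 and 59 control reads and 525, 777 and 645 Poxn reads, and at −2.89 ± 0.45 (SE; edgeR adjusted p = 0.0189) it did not pass at 0.01. It did pass under total-count scaling (−4.21, edgeR adjusted p = 0.00444) and in DESeq2 (−2.82, adjusted p = 3.2e-07). The 10 tested genes had a median log2 fold change of 1.31, and −0.11 with total counts. DESeq2 called 4 of the other 27 DEG/ENaC genes with a higher control level and 2 with a higher Poxn level (background 6.83% and 0.692%). The 4 were ppk10, ppk3, ppk7 and ppk31. ppk7 was dropped by edgeR's filter, with 3, 9 and 44 control reads and 0, 0 and 0 Poxn reads (DESeq2 log2 fold change 8.12, adjusted p = 1.93e-06). ppk31 stood at 2.58 in DESeq2 (adjusted p = 0.00277) and did not pass 0.05 in edgeR (adjusted p = 0.0511). Under total-count scaling it was 0.58 (edgeR adjusted p = 0.657).

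**Figure D5:**
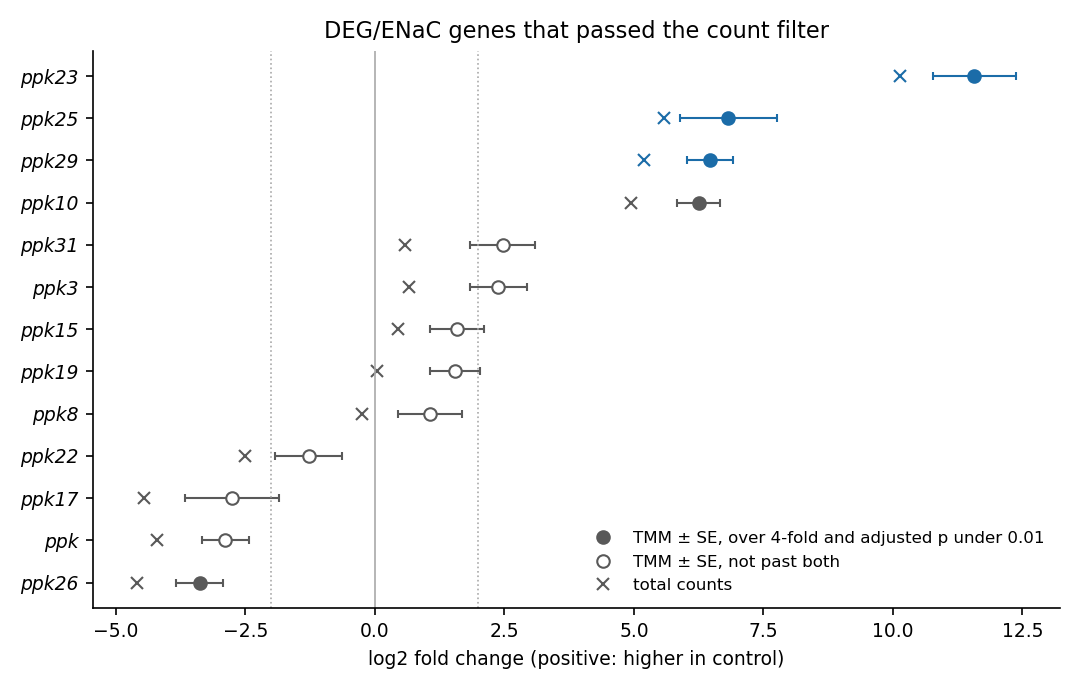
Log2 fold change with its standard error for the 13 DEG/ENaC genes that could be tested, ordered by size (circles, TMM scaling; crosses, total counts; filled circles are over 4-fold with an adjusted p under 0.01; the 3 channel genes are in blue). ppk23 stands at 11.57, ppk25, ppk29 and ppk10 stand between 6.26 and 6.82, and ppk26 stands at −3.38.

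Genes known from pheromone sensing and courtship were read from a list of 25, of which 14 could be tested. The list was chosen with earlier results of these data known, so its calls are no independent test. By edgeR 4 were called with a higher control level and 0 with a higher Poxn level, beside 0.602% and 0.0557% of all genes, and at an unadjusted p under 0.05 these numbers were 9 and 2, beside 17.8% and 14.1%. The 14 had a median log2 fold change of 2.15 (0.71 with total counts). DESeq2, which drops fewer genes of low count, called 11 and 1 of the 25, beside 6.83% and 0.692% of its genes. Without Poxn replicate 1, 2 or 3, edgeR called 1 gene of the list in each case, VGlut. Of all tested genes 3, 7 and 7 were called with a higher control level in these fits. VGlut, which loads glutamate into synaptic vesicles, was nearest to ppk23, at 148, 198 and 572 control reads and 2, 1 and 1 Poxn reads (log2 fold change 9.46 ± 0.51, edgeR adjusted p = 0.000296; 7.95 under total-count scaling). Per exonic base, ppk23 exceeded VGlut by 4.76, 2.55 and 4.03 times in the control-labelled libraries, and replicate 2 stood apart by more than counting error.

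The other called genes of the list were CheB42b, CheB42c and CheB98a, which encode small secreted proteins of a family expressed in taste bristles. CheB42c, whose intron holds ppk25, had 76058, 31509 and 38590 control reads and 59, 63 and 54 Poxn reads (log2 fold change 12.31 ± 1.62, edgeR adjusted p = 0.00816; 9.99 under total-count scaling). CheB42b had 26230, 8063 and 17933 reads against 16, 7 and 8, and CheB98a had 1708, 3509 and 2580 against 4, 0 and 0. Their log2 fold changes were 13.21 and 13.004, or 10.96 and 11.18 under total-count scaling. Without single Poxn-labelled libraries the edgeR adjusted p was 0.0928 to 0.108 for CheB42c, 0.0454 to 0.0549 for CheB42b and 0.0214 to 0.0298 for CheB98a (0.0118 without control replicate 1), and with length offsets it was 0.0112 for CheB42c. CheB42c had its most reads in control replicate 1, and ppk25, inside its intron, in control replicate 3. Among the genes past an adjusted p of 0.05 but not 0.01, the ionotropic co-receptor genes Ir25a and Ir76b had log2 fold changes of 3.13 ± 0.66 (edgeR adjusted p = 0.0343) and 2.47 ± 0.50 (edgeR adjusted p = 0.0333), both below those of the channel genes. Under total-count scaling they were 1.81 and 1.23 and did not pass (edgeR adjusted p = 0.184 and 0.349), and DESeq2 called both (adjusted p = 0.000139 and 7.34e-05). CheB38c stood at 13.05 ± 1.86 (edgeR adjusted p = 0.0121; 10.68 under total-count scaling), and Gr28b, a gustatory receptor gene, at −2.10 ± 0.44 (edgeR adjusted p = 0.0333; −3.40 under total-count scaling).

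The genes whose pattern over the 6 libraries was most like that of each channel gene were found by the root mean square difference of log2 CPM, after each gene's mean had been taken off. For ppk23 these were VGlut (difference 0.52), Hdc, which makes histamine (0.59), and the cytochrome P450 gene Cyp6a2 (0.61). Cyp6a2 had 2206, 795 and 2445 reads against 8, 4 and 6, and Hdc had 3090, 2465 and 3617 against 23, 25 and 12. For ppk29 they were Fa2h, a fatty acid 2-hydroxylase gene (0.31), ppk10 (0.32) and CG13427 (0.35), and for ppk25 they were CG11550 (0.69), CG13427 (0.73) and Fa2h (0.74). Fa2h and CG13427 were near to both ppk25 and ppk29. Fa2h had 96, 113 and 1195 reads against 11, 10 and 14. These genes were picked as the nearest of all tested genes. The differences among the channel genes were 1.46 between ppk23 and either other gene and 0.83 between ppk25 and ppk29. By nearness among all tested genes, ppk29 was rank 7 from ppk25, and ppk25 was rank 12 from ppk29. From ppk23, ppk25 was rank 19 and ppk29 rank 20. In turn, ppk23 was rank 28 from ppk25 and rank 42 from ppk29. All 6 libraries are shared by these genes, and the values describe likeness only.

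Markers of other cells were read beside the channel genes. The 7 flight muscle genes summed to 158 to 254 CPM with the control label and 137 to 326 CPM with the Poxn label. The 4 glial genes summed to 15.1 to 33.7 against 36.8 to 41.8 CPM, and the 4 hemocyte genes to 50.03 to 87.3 against 100.7 to 125 CPM, with no overlap for either list. The hemocyte sum was carried by crq, at 51.0 against 107 CPM, while the list's median log2 fold change was 0.71 (−0.79 with total counts). The 9 mechanosensory genes summed to 26.1 to 49.4 against 21.5 to 25.5 CPM, with no overlap, but with total counts the sums overlapped, at 6.42 to 48.8 against 40.0 to 47.4. Of their 7 tested members 1 was called with a higher control level, nompA, which encodes an extracellular protein of mechanosensory organs and was named after its values were seen. It had 33, 140 and 379 control reads and 10, 3 and 5 Poxn reads, and its log2 fold change of 6.44 ± 0.62 (SE; edgeR adjusted p = 0.00172; 5.16 under total-count scaling) was close to that of ppk29. The list's median was −0.28 (−1.76 with total counts). Antennal markers summed to 0 to 4.22 against 2.41 to 3.42 CPM, with Obp83b at 0 in all libraries, and the yolk protein genes of the female fat body to 0.384 to 2.20 against 0.216 to 0.532 CPM. The 3 genes of male dosage compensation summed to 2.19 to 5.65 against 5.87 to 7.84 CPM, with roX2 at 0 in all libraries. This sum was carried by msl-2, at 3.10 against 7.05 CPM, the only one of them that could be tested. roX1 had 0, 5 and 1 reads against 1, 1 and 3. The part of these cells in the results was not tested.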

How the data were processed

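The members and gene lists were chosen with earlier results of these data known. Per the labels and methods, adapters were removed from read pairs (Trim Galore 0.4.0), STAR 2.4.2a placed the pairs on the fly genome (FlyBase r6.09), and HTSeq counted them per gene. The authors deposited these raw counts for each library. Version and strand setting are not given in the sources used here. The 5 lines that name no gene were left out; reads on no gene were 47.9% to 58.6% and ambiguous reads 1.24% to 2.69% of a library's sum. The table of the authors' own comparison (fold changes, p-values and 6 columns of normalized values) was not used. Names, positions and exons came from the Ensembl annotation of release 6 (BDGP6), which lists 17229 of the 17476 genes. The marker para was not matched, which left 11 of 12 neuronal markers.

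Counts were compared with edgeR 4.0.16 in R 4.3.3 (quasi-likelihood test, Benjamini-Hochberg adjustment over 8973 genes, TMM factors, prior count 0.125). Low genes were dropped by filterByExpr at a minimum count of 10. Standard errors were obtained from the fold change and the F statistic. The labels call the replicates of a genotype independent collections of wings, and p-values measure the spread between them. Alternatives were RLE factors, total counts, DESeq2 1.42.0 without and with its prior, limma voom with quality weights (limma 3.58.1), a robust fit, other filters, a prior count of 2, an adjusted p under 0.05, no fold threshold, the replicate number as a block, length offsets, library sizes without the 50 most abundant genes and leaving out single libraries. The count test was also run on simulated counts with the same variability for every gene. That run does not show how the test behaves on the uneven spread of these libraries. Named genes were the members, list genes called or at an adjusted p under 0.05, genes that overlap a member, and the 3 genes nearest in pattern to each member. Genes outside this rule (the nearest neighbours of ppk23, single markers, ppk7, ppk31, CheB42a, fru and dsx) were chosen after their values were seen. Ratios used 0.5 added count and exact permutation tests (scipy 1.17.1).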

Additional observations from a re-analysis of the deposited data

How the results depend on the processing

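The direction of ppk23, ppk25 and ppk29 was the same in all 20 alternatives of each gene. Of these, the looser adjusted p and the dropped fold threshold reuse the same fit, so they could not change the direction. Leaving out single libraries gave log2 fold changes from 11.08 to 12.88 for ppk23, from 6.26 to 8.50 for ppk25 and from 6.30 to 6.76 for ppk29. The call on ppk25 was also lost with edgeR's robust fit (6.82, adjusted p = 0.0103) and with a filter of 10 counts in 3 libraries (6.82, adjusted p = 0.0100009) and the cause was not tested. The number of genes called depended on the setting. For genes higher in the control-labelled libraries it moved from 54 to 720 with DESeq2, 684 with its prior, 218 with limma voom, 90 with no filter, 347 at an adjusted p under 0.05 and 104 with the replicate block, and from 3 to 222 with single libraries left out. For genes higher in the Poxn-labelled libraries it moved from 5 to 3 with RLE factors, 85 with total counts, 73 with DESeq2, 56 with its prior, 14 with limma voom, 13 with no filter, 81 at an adjusted p under 0.05 and 14 with the block, and from 0 to 24 with single libraries left out. Among the other DEG/ENaC genes, the number higher in the control-labelled libraries moved from 1 to 4 with DESeq2 and with its prior, 2 with no filter and 2 at an adjusted p under 0.05 (0 to 1 with libraries left out). The number higher in the Poxn-labelled libraries moved from 1 to 0 with RLE factors or length offsets, 3 with total counts, and 2 with DESeq2, its prior, no filter, an adjusted p under 0.05 or the block (0 to 3 with libraries left out). On the pheromone list, 4 genes became 11 with DESeq2 and with its prior and 7 at an adjusted p under 0.05 (1 to 5 with libraries left out), and 0 higher in the Poxn-labelled libraries became 1 with DESeq2 and 1 at an adjusted p under 0.05. The cause of these moves was not tested.

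The replicate numbers were not taken as pairs. The deviations of same-numbered libraries from their group means correlated at 0.123, 0.142 and −0.07 across genes. With the replicate block the log2 fold changes were 11.62 for ppk23, 6.99 for ppk25 and 6.48 for ppk29, and the 3 calls held. Of 51 alternatives of the ratio and marker comparisons (those of ppk23 to ppk25 included, although its Poxn values rest largely on the added count), 50 kept their sign and moved by less than the spread between libraries. The exception changed sign. It was the ratio of ppk25 to ppk29, whose log2 difference between genotypes turned from 0.9997 to −0.30 without Poxn replicate 3. That move also lay within the spread, at an SD of 2.45 in the Poxn-labelled libraries. With single libraries left out, the difference ranged from −0.30 to 2.13. The alternatives that changed or dropped the gene length shift every library alike. They could not move a difference between genotypes and say nothing on how firm it is. In the Poxn-labelled libraries the 3 genes rested on 1, 11 and 25 reads, which limits the precision of every ratio there.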

Other observations

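CheB42a, chosen after its values were seen, encodes a secreted protein of the family expressed in taste bristles. It is the nearest gene to ppk25 on the same strand, at a gap of 100 bases. It had 4, 44 and 18 reads in the control-labelled libraries and 1, 0 and 0 in the Poxn-labelled libraries, too few to be tested by edgeR. Per exonic base, ppk25 exceeded CheB42a by 7.38 times in control replicate 1 (95% counting interval 2.73 to 28.0) and by 10.8 times in replicate 3 (6.74 to 18.4), while in replicate 2 the ratio was 0.439 (0.277 to 0.694). The adjacent genes thus changed order in control replicate 2 by more than counting error.

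The courtship regulators fru and dsx, also chosen after their values were seen, did not pass the criterion. fru, which marks neurons of the male courtship circuit, had 27, 76 and 113 control reads and 118, 74 and 74 Poxn reads. Its log2 fold change was 1.60 ± 0.45 (SE; edgeR adjusted p = 0.0587), or 0.02 under total-count scaling. dsx was at 1.15 ± 0.50 (SE; edgeR adjusted p = 0.158), or −0.47 under total-count scaling.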
